A study of Homo sapiens with 39 samples.

Results

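MAF, NDRG1, AKAP12 and HPGD are 4 of the 63187 genes counted in C4-2B prostate cancer cells treated with PARP inhibitors (PARPi), androgen receptor pathway inhibitors (ARPi) or both. They were picked from 100 androgen response genes by their values after 5 days of treatment. MAF, NDRG1 and AKAP12 stood the furthest above DMSO of these 100 with either PARPi, and HPGD and AKAP12 the furthest below it with either ARPi. The levels that made this choice are given as a description without a test. Tests were kept for olaparib in a separate time course and for differences between treated groups that the choice did not use. All 4 genes passed the filter on low counts in both experiments.

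C4-2B is an established castration-resistant cell line derived from LNCaP cells that still depends on the androgen receptor, and a single line gives no view of variation between tumors. In the panel, cells received DMSO, a PARPi (olaparib at 1 µM or talazoparib at 10 nM), an ARPi (abiraterone acetate at 5 µM or enzalutamide at 20 µM) or a pair of them at the same doses (abiraterone acetate plus olaparib, enzalutamide plus talazoparib) for 5 days. In the time course, cells received DMSO, olaparib at 1 µM or olaparib at 5 µM for 1 or 5 days. Each of the 13 groups had 3 libraries, and whether these came from separate cultures is not stated, so p-values measure the spread between these samples only. All cells, controls included, grew in medium with fetal bovine serum.

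The androgen receptor is a nuclear receptor that enters the nucleus once it binds androgen and switches on genes of the prostate lineage. Abiraterone blocks CYP17A1, an enzyme of androgen synthesis, and enzalutamide binds the receptor itself, whereas olaparib and talazoparib block PARP1 and PARP2, enzymes of DNA repair. Among the 4 genes, MAF encodes a large Maf transcription factor with a basic leucine zipper, and NDRG1 a stress-responsive protein known as a hypoxia and androgen target. AKAP12 encodes a scaffold that anchors protein kinase A and protein kinase C at the membrane. HPGD encodes 15-hydroxyprostaglandin dehydrogenase, which inactivates prostaglandins.

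On GRCh38, MAF (ENSG00000178573.7) lies on chromosome 16 from 79585843 to 79600737 on the minus strand. AKAP12 (ENSG00000131016.17) lies on chromosome 6 from 151239967 to 151358559 on the plus strand, and HPGD (ENSG00000164120.14) on chromosome 4 from 174490175 to 174523154 on the minus strand. Promoter windows come from RefSeq (GRCh38.p14) and span 250 bases before to 50 bases after a transcript start. They are shown for MAF (chr16:79600688-79600987, minus strand), the first AKAP12 start (chr6:151239717-151240016, plus strand) and the downstream HPGD start (chr4:174522439-174522738, minus strand). These 3 genes stood further below DMSO with either ARPi than NDRG1 did, whose window is not shown here. Capitals mark the motifs found, CACGTG in AKAP12 and HPGD, and TGACGTCA followed by TATAAA in MAF.
MAF: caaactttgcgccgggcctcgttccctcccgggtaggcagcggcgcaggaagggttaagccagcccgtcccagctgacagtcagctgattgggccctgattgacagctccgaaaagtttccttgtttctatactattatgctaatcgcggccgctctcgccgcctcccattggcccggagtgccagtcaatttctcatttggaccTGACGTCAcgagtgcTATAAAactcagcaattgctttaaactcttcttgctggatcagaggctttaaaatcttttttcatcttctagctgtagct
AKAP12: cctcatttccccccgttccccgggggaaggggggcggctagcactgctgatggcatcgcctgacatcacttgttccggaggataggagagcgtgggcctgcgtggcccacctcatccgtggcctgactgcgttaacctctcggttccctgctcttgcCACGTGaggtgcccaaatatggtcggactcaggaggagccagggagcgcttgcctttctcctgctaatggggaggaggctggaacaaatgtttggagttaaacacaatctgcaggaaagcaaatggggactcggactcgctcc
HPGD: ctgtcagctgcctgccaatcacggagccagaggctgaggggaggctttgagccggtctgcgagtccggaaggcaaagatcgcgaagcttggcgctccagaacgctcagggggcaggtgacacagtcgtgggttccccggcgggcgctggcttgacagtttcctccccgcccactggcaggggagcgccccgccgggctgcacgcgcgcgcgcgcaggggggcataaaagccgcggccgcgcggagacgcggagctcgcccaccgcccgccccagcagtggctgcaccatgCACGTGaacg
None of the 3 windows holds the hexamer TGTTCT of an androgen receptor site on either strand, nor, it follows, the palindrome of AGAACA, 3 bases of any kind and TGTTCT. That palindrome occurs in 0.00285% and the hexamer in 14.8% of 35116 RefSeq windows of the same length. The E-box CACGTG begins at base -93 from the AKAP12 start and at base 41 from the HPGD start, and 7.26% of all windows hold it. Windows at the other AKAP12 starts also hold CACGTG, while the window at the upstream HPGD start does not. The cyclic AMP response palindrome TGACGTCA begins at base -45 from the MAF start and is found in 1.85% of windows, and TATAAA begins at base -30 and is found in 11.5%. A CACGTG also contains the hypoxia response core ACGTG on both strands, which 21.4% of windows hold. These matches describe letters in a window and not binding.

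In the panel, MAF was higher than with DMSO with either PARPi and far lower with either ARPi. With DMSO, the 3 libraries had 39.6, 37.3 and 34.9 CPM (counts scaled to library size by TMM), with olaparib 124, 114 and 109.7, and with talazoparib 104, 103 and 106. Abiraterone libraries had 3.11, 3.37 and 3.08 CPM and enzalutamide libraries 1.57, 1.70 and 1.72 CPM. With abiraterone plus olaparib the level was 7.88, 8.44 and 8.19 CPM, and with enzalutamide plus talazoparib 5.14, 5.23 and 4.39 CPM. No neighbouring groups overlapped in the order olaparib, talazoparib, DMSO, abiraterone plus olaparib, enzalutamide plus talazoparib, abiraterone, enzalutamide. The group means lay 3.12-fold above DMSO with olaparib and 22.2-fold below it with enzalutamide. In bulk RNA, fewer cells of a kind and less RNA per cell cannot be told apart.

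NDRG1 (ENSG00000104419.17, GRCh38 chromosome 8 from 133237175 to 133302022, minus strand) was the most abundant of the 4 and had the smallest loss with an ARPi. Its DMSO libraries had 178, 152 and 138 CPM, olaparib libraries 494, 447 and 419 CPM, and talazoparib libraries 396, 411 and 398 CPM. Abiraterone left 81.7, 88.1 and 91.1 CPM and enzalutamide 68.7, 71.5 and 60.9 CPM. Abiraterone plus olaparib had 94.2, 97.5 and 84.8 CPM and enzalutamide plus talazoparib 76.4, 73.0 and 70.9 CPM. Abiraterone plus olaparib overlapped with abiraterone, and enzalutamide plus talazoparib overlapped with enzalutamide, while the PARPi groups and DMSO stood apart from each other. NDRG1 lay 2.91-fold above DMSO with olaparib, but only 1.79-fold below it with abiraterone and 2.32-fold below it with enzalutamide.

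AKAP12 was higher with either PARPi and close to lost with either ARPi. The level was 22.5, 17.6 and 16.1 CPM with DMSO, 43.9, 37.5 and 29.7 CPM with olaparib and 43.8, 40.6 and 42.5 CPM with talazoparib. Abiraterone libraries held 18, 20 and 46 counts and enzalutamide libraries 12, 19 and 24 counts, where DMSO libraries held 662, 605 and 635. The combinations held 15, 29 and 18 counts with abiraterone plus olaparib and 19, 20 and 13 with enzalutamide plus talazoparib. In the order abiraterone, abiraterone plus olaparib, enzalutamide, enzalutamide plus talazoparib, each group overlapped with the next, and all lay below DMSO. The PARPi groups overlapped with each other and lay above DMSO. From summed counts, AKAP12 was 21.6-fold lower than DMSO with abiraterone and 38.2-fold lower with enzalutamide. These folds are among the values that chose AKAP12, so they are given without an interval.

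HPGD had the lowest level of the 4 and was almost absent wherever an ARPi was given. DMSO libraries held 94, 109 and 139 counts (3.19, 3.17 and 3.52 CPM), olaparib libraries 5.48, 4.32 and 4.01 CPM and talazoparib libraries 3.22, 4.07 and 3.94 CPM. Each abiraterone library held 2 counts, and enzalutamide libraries held 3, 4 and 1. Abiraterone plus olaparib held 12, 0 and 2 counts and enzalutamide plus talazoparib 1, 3 and 2. Talazoparib overlapped with both DMSO and olaparib, and no library with an ARPi reached the DMSO range. Summed counts, 6 with abiraterone and 8 with enzalutamide, put HPGD 54.3-fold and 47.2-fold below DMSO. These folds are among the values that chose HPGD and rest on few counts.

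**Figure D1:**
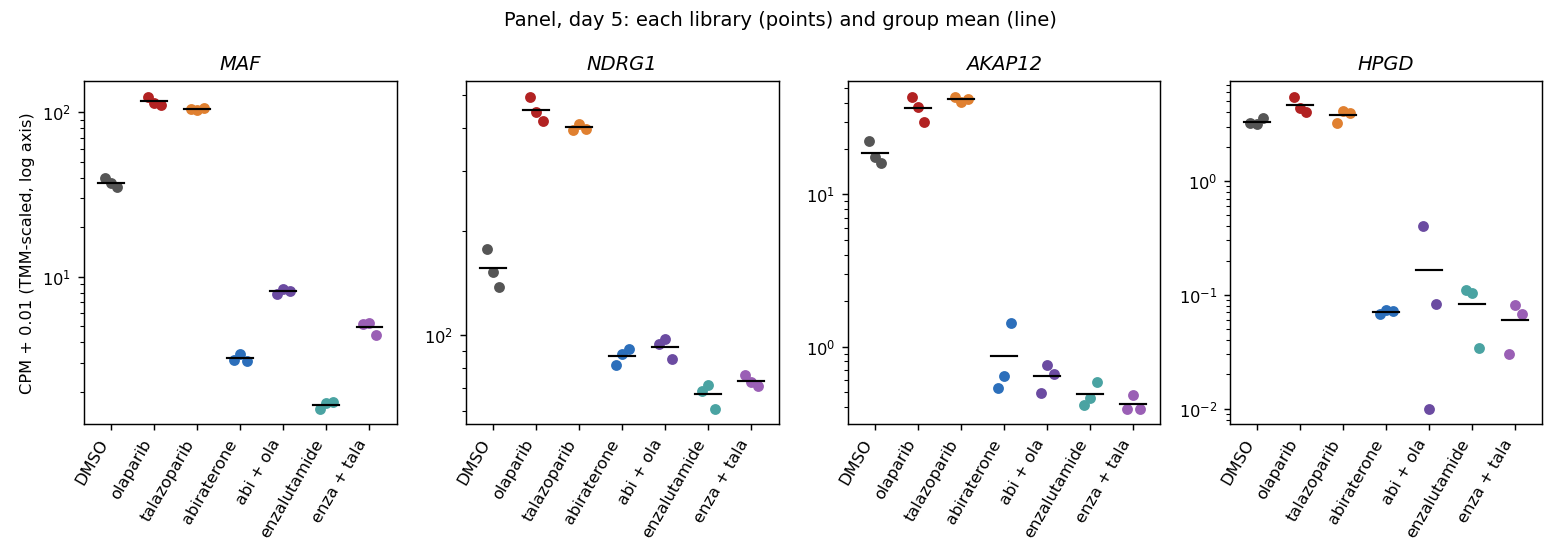
TMM-scaled CPM plus 0.01 on a log axis for each library of the panel (points) with the group mean (line). All 12 libraries with an ARPi lie below the DMSO libraries for each gene, and HPGD falls to 0 in 1 abiraterone plus olaparib library.

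The choice was narrower for some genes than for others. With olaparib, log2 fold changes were 1.64 for MAF, 1.54 for NDRG1 and 0.99 for AKAP12, and the next androgen response gene was ADAMTS1, a secreted protease, at 0.86. With talazoparib they were 1.49, 1.37 and 1.18, followed by HSD17B14 at 0.85. With abiraterone, HPGD and AKAP12 had -5.68 and -4.44, and STEAP4, a metalloreductase, came next at -3.65. With enzalutamide the next gene was again STEAP4 at -4.55, after -5.49 for HPGD and -5.26 for AKAP12. Counted from the lowest value, MAF held place 4 of 100 with either ARPi, whereas NDRG1 held place 51 with abiraterone and place 37 with enzalutamide. Of all 18625 genes tested, 19.6% were called higher (adjusted p under 0.05) with olaparib and 18.4% with talazoparib, and 27.1% were called lower with abiraterone and 26.3% with enzalutamide.

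Per kilobase of exon, mean DMSO levels in the panel were 13.0 CPM for NDRG1, 5.32 for MAF, 2.13 for AKAP12 and 0.596 for HPGD. Under enzalutamide this order was kept, with 5.59 CPM per kilobase for NDRG1, 0.238 for MAF, 0.0541 for AKAP12 and 0.0132 for HPGD. Per kilobase, NDRG1 with enzalutamide was thus still near the level of MAF with DMSO. The length covers all annotated exons of a gene, 12002 bases for NDRG1 and 6999 for MAF, and not only the transcripts in use. The order of genes per kilobase depends on this choice of length.

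Drugs of the same class were compared directly. Talazoparib (10 nM) left MAF slightly below olaparib (1 µM), by a log2 difference of -0.15 ± 0.04 (SE, edgeR's quasi-likelihood test, adjusted p = 0.0201), where 5.25% of all genes were called lower. That call was lost without olaparib library A (-0.10, adjusted p = 0.221), talazoparib library B (adjusted p = 0.0951) or talazoparib library C (adjusted p = 0.063). NDRG1 (-0.17, 95% interval -0.35 to 0.00, adjusted p = 0.249), AKAP12 (0.19, -0.10 to 0.48, adjusted p = 0.478) and HPGD (-0.30, -0.89 to 0.30, adjusted p = 0.62) did not pass in the same edgeR fit. The comparison is between those doses only.

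Between the ARPi, enzalutamide left less MAF and NDRG1 than abiraterone. MAF was 1.90-fold lower with enzalutamide (log2 difference -0.93 ± 0.13, edgeR adjusted p = 1.18e-06) with no overlap between 3 and 3 libraries. NDRG1 was 1.30-fold lower (-0.38 ± 0.10, edgeR adjusted p = 0.0112), and without enzalutamide library C this became -0.31 with an adjusted p of 0.0607. These were the 2 genes tested here, where 10.1% of all genes were called lower. AKAP12 was chosen with these ARPi libraries and is described without a test. It differed by -0.82, and abiraterone library C alone held 46 of its 84 abiraterone counts. Without that library the AKAP12 difference was -0.26, and with all libraries DESeq2 gave -0.85. HPGD, at 1 to 4 counts per library in these groups, is not compared.

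The combinations differed in the same direction as their ARPi for MAF. Enzalutamide plus talazoparib had 1.65-fold less MAF than abiraterone plus olaparib (-0.72 ± 0.08, edgeR adjusted p = 4e-08), and no library overlapped. NDRG1 was also lower (-0.33 ± 0.09, edgeR adjusted p = 0.0327), where 6.71% of genes were called lower. That NDRG1 call was lost on leaving out enzalutamide plus talazoparib library A, B or C or abiraterone plus olaparib library A or B, with log2 differences between -0.36 and -0.28 and adjusted p between 0.0628 and 0.136. AKAP12 (-0.63, interval -1.77 to 0.51) did not pass in edgeR, with an adjusted p of 0.549. HPGD is not compared between the combinations, since it held 0 to 12 counts there and passed the filter on low counts through the groups without an ARPi.

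Adding a PARPi to an ARPi raised MAF but not NDRG1 past the threshold. Olaparib on top of abiraterone brought MAF from 3.19 ± 0.16 to 8.17 ± 0.28 CPM (SD, n = 3), a 2.57-fold rise (log2 1.36 ± 0.09, edgeR adjusted p = 1.47e-13). Talazoparib on top of enzalutamide brought it from 1.66 ± 0.08 to 4.92 ± 0.46 CPM, a 2.96-fold rise (log2 1.57 ± 0.11, edgeR adjusted p = 1.79e-13). All 3 combination libraries exceeded all 3 libraries of the ARPi alone in both pairs, which share no library. MAF was the member called of the 2 tested, where 14.4% of genes were called higher with olaparib added and 16.5% with talazoparib added. Even so, MAF stayed 4.54-fold below DMSO with abiraterone plus olaparib and 7.49-fold below with enzalutamide plus talazoparib.

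NDRG1, the other gene tested here, had a log2 difference of 0.09 with olaparib added (95% interval -0.11 to 0.29, edgeR adjusted p = 0.547) and of 0.13 with talazoparib added (-0.07 to 0.34, edgeR adjusted p = 0.312). Whether the response to a PARPi differed with and without an ARPi was not tested. For AKAP12 the values were -0.42 (-1.44 to 0.60) and -0.23 (-1.40 to 0.94), given as a description. Without abiraterone library C, the first of these became 0.14. HPGD held too few counts in these groups for a comparison, and 12 of its 14 counts with abiraterone plus olaparib lay in library A.

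Adding an ARPi to a PARPi is described without a test for all 4 genes, since 3 were chosen with the PARPi libraries and HPGD, at 0 to 12 counts in every library with an ARPi, passed the filter on low counts through the groups without one. HPGD had 4.60 ± 0.77 CPM with olaparib and 0.154 ± 0.208 CPM with abiraterone plus olaparib (SD, n = 3). It had 3.74 ± 0.46 CPM with talazoparib and 0.0498 ± 0.0265 CPM with enzalutamide plus talazoparib. In neither pair did the libraries overlap. Log2 fold changes in these contrasts were -3.82 and -4.40 for MAF, -2.30 and -2.45 for NDRG1, and -5.85 and -6.67 for AKAP12.

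**Figure D2:**
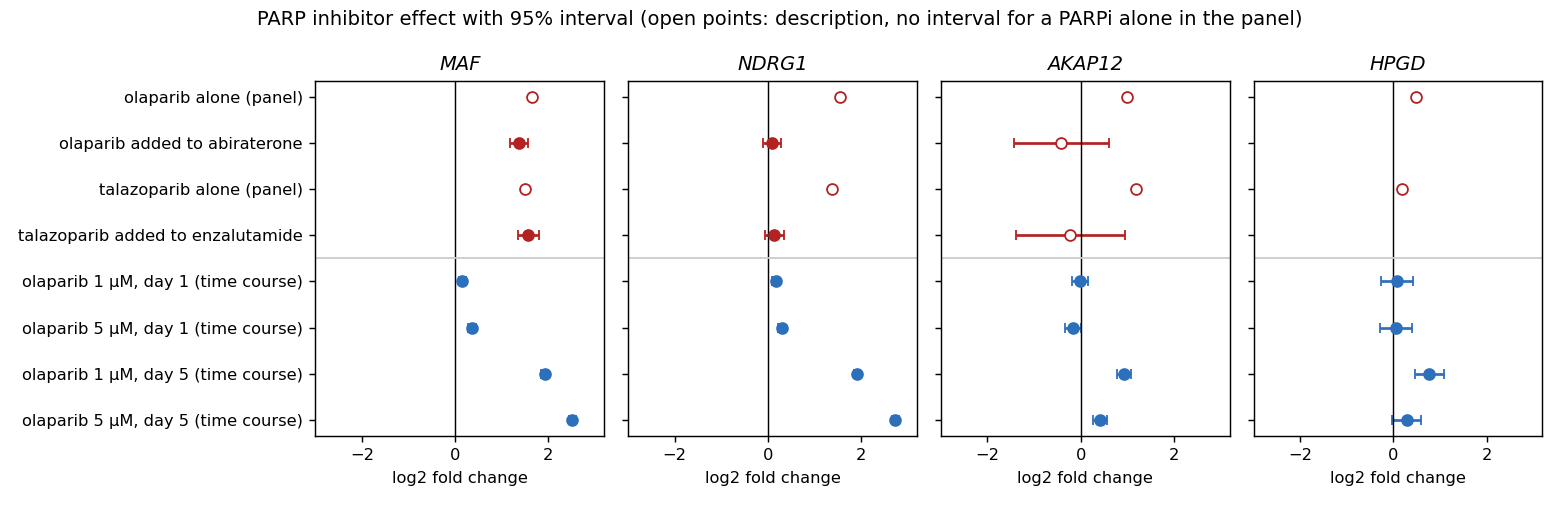
Log2 fold change with 95% interval (bars) for a PARPi against its own control, alone or on top of an ARPi in the panel (red) and by dose and day in the time course (blue). Open points are descriptions, and those of a PARPi alone in the panel were used in the choice of MAF, NDRG1 and AKAP12 and have no interval. MAF lies to the right of 0 in the 6 rows with filled points, NDRG1 lies at 0.09 and 0.13 on top of an ARPi, AKAP12 has wide intervals there, and HPGD is not drawn there for lack of counts.

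The time course asked how these genes respond to olaparib by dose and duration, in libraries other than those whose values the choice rule used. At day 1, MAF rose by 1.11-fold and NDRG1 by 1.12-fold with 1 µM, while AKAP12 and HPGD were not past the threshold. At day 5, all 4 rose with 1 µM, from 1.71-fold for HPGD to 3.80-fold for MAF. With 5 µM at day 5, MAF and NDRG1 rose further, whereas AKAP12 and HPGD were lower than with 1 µM.

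MAF libraries with DMSO at day 1 had 32.5, 30.9 and 34.7 CPM, those with 1 µM 37.1, 35.3 and 36.9, and those with 5 µM 42.7, 41.1 and 41.9. At day 5 DMSO had 31.0, 29.5 and 31.9 CPM, 1 µM had 120.1, 118 and 113, and 5 µM had 169, 183 and 177. The groups of each day rose with dose without overlap. Log2 fold changes at day 1 were 0.16 ± 0.04 with 1 µM (edgeR adjusted p = 0.00666) and 0.36 ± 0.04 with 5 µM (edgeR adjusted p = 2.85e-09). Without DMSO library 2 of day 1, the 1 µM value was 0.11 with an adjusted p of 0.0719. At day 5 they were 1.92 ± 0.04 (edgeR adjusted p = 4.32e-30) and 2.52 ± 0.04 (edgeR adjusted p = 1.95e-35).

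NDRG1 followed the same course from a higher level. Its libraries had 94.0, 91.2 and 99.2 CPM with DMSO at day 1, 105, 108 and 105 with 1 µM, and 118, 118 and 113 with 5 µM. At day 5 they had 111, 104 and 106 CPM with DMSO, 392, 400.2 and 419.5 with 1 µM, and 682, 728 and 737 with 5 µM. DMSO, 1 µM and 5 µM libraries did not overlap at either day. The log2 fold changes at day 1 were 0.16 ± 0.04 (edgeR adjusted p = 0.0032) and 0.30 ± 0.04 (edgeR adjusted p = 7.27e-07), and at day 5 1.91 ± 0.04 (edgeR adjusted p = 1.28e-20) and 2.74 ± 0.04 (edgeR adjusted p = 2.54e-24). Among 100 androgen response genes, MAF and NDRG1 held the first 2 places at day 5 with either dose.

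AKAP12 was not past the threshold at day 1 and peaked at the lower dose by day 5. Day 1 libraries had 5.77, 5.12 and 5.87 CPM with DMSO, 5.54, 5.45 and 5.50 with 1 µM, and 4.89, 5.46 and 4.56 with 5 µM, which overlap. Day 5 libraries had 7.54, 7.07 and 7.36 CPM with DMSO, 12.7, 14.8 and 14.5 with 1 µM, and 9.49, 9.43 and 10.4 with 5 µM. All 5 µM libraries of day 5 lay between the DMSO and the 1 µM libraries. The log2 fold changes were 0.93 ± 0.07 with 1 µM (edgeR adjusted p = 3.66e-13) and 0.41 ± 0.08 with 5 µM (edgeR adjusted p = 1.29e-05) at day 5. At day 1 they were -0.02 (95% interval -0.19 to 0.15) and -0.17 (-0.34 to 0.01, edgeR adjusted p = 0.121), and without 5 µM library 2 of day 1 the second became -0.24 with an adjusted p of 0.046.

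HPGD had the same order at day 5 as AKAP12. At day 1, DMSO libraries had 1.19, 1.91 and 1.40 CPM, 1 µM libraries 1.85, 1.42 and 1.56, and 5 µM libraries 1.46, 1.50 and 1.78, all overlapping. At day 5, DMSO libraries had 2.60, 2.25 and 2.24 CPM, 1 µM libraries 4.56, 4.17 and 3.41, and 5 µM libraries 2.94, 2.95 and 2.81. None of the day 5 groups overlapped. The rise with 1 µM was 0.77 ± 0.15 on the log2 scale (edgeR adjusted p = 4.35e-05), while 5 µM gave 0.29 (95% interval -0.02 to 0.60, edgeR adjusted p = 0.09). Changes at day 1 were 0.09 (-0.26 to 0.43) and 0.06 (-0.28 to 0.41).

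Counted together, 2 of the 4 genes were called higher at day 1 with 1 µM, against 6.3% of 18502 genes, and 2 with 5 µM, against 21.6%. At day 5 all 4 were called higher with 1 µM, against 23.4%, and 3 with 5 µM, against 34.4%. The olaparib comparisons of a day share their DMSO libraries.

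**Figure D3:**
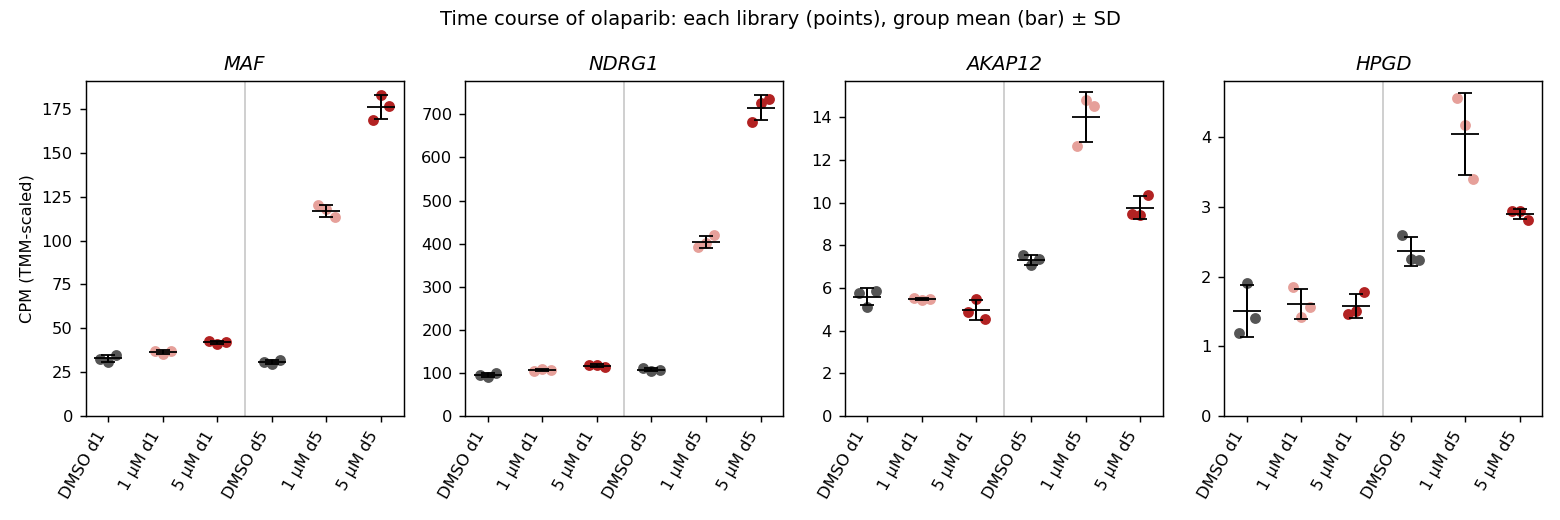
TMM-scaled CPM of each library (points) by dose and day of olaparib, with the group mean and SD (bars). MAF and NDRG1 increase with dose at day 5, while AKAP12 and HPGD are highest with 1 µM (up to 14.8 and 4.56 CPM) and lower with 5 µM (up to 10.4 and 2.95 CPM).

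The dose step at day 5 split the genes. From 1 to 5 µM, MAF rose by 1.51-fold (log2 0.59 ± 0.03, edgeR adjusted p = 1.11e-17) and NDRG1 by 1.77-fold (0.83 ± 0.03, edgeR adjusted p = 4.9e-15). AKAP12 fell by 0.52 ± 0.07 on the log2 scale (edgeR adjusted p = 1.4e-07) and HPGD by 0.48 ± 0.15 (edgeR adjusted p = 0.00613). The HPGD step was -0.39 with an adjusted p of 0.052 without 1 µM library 1 of day 5. All 4 were called, 2 in each direction, where 26.6% of all genes were called higher and 27.0% lower. At day 1 the step raised MAF (0.20, edgeR adjusted p = 0.000106) and NDRG1 (0.13, edgeR adjusted p = 0.00822), where 12.8% were called higher, and AKAP12 (-0.15, 95% interval -0.32 to 0.03) and HPGD (-0.02, -0.37 to 0.32) did not pass.

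A fall from 1 to 5 µM was not usual among genes that 1 µM raised. Of the other 58 androgen response genes called higher with 1 µM at day 5, 40 were called higher still with 5 µM, 10 lower and 8 neither. Over all 4324 genes called higher with 1 µM, 233 (5.39%) were called lower with 5 µM than with 1 µM. Both comparisons use the same 1 µM libraries. AKAP12 went from place 7 of 100 androgen response genes with 1 µM to place 39 with 5 µM, and HPGD from place 14 to place 47.

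**Figure D4:**
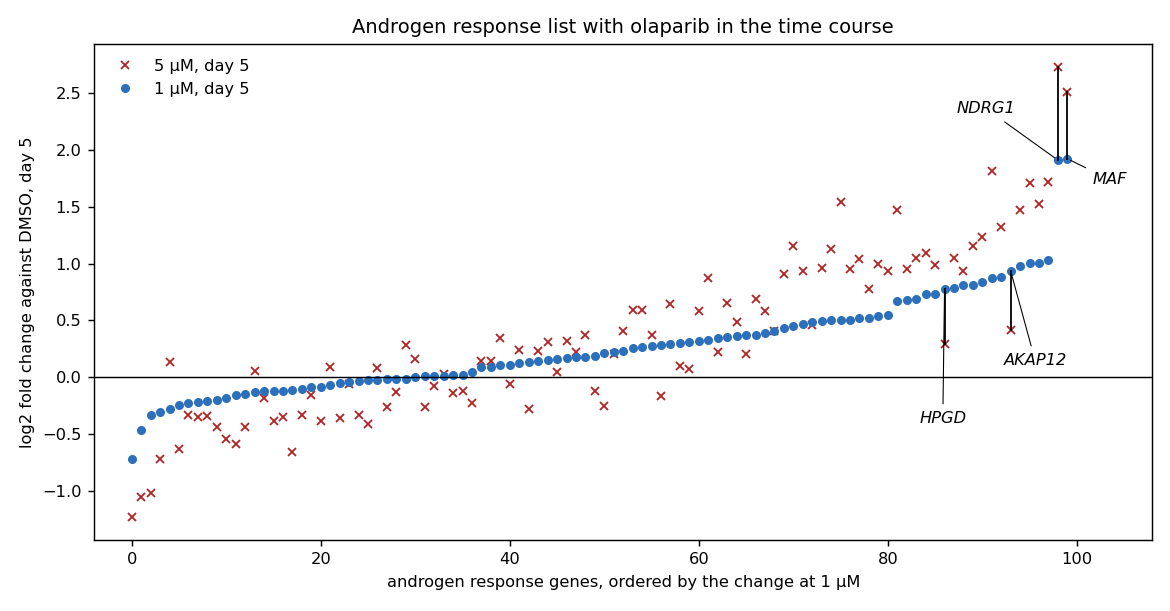
Log2 fold change against DMSO at day 5 of 100 androgen response genes with olaparib at 1 µM (points) and 5 µM (crosses), ordered by the value at 1 µM, with lines joining the doses of the 4 genes. MAF and NDRG1 lie at the top at both doses, and AKAP12 and HPGD drop from 0.93 and 0.77 to 0.41 and 0.29.

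The effect of olaparib differed between the days. The difference of the log2 fold changes, day 5 minus day 1, was 1.77 ± 0.06 for MAF and 1.75 ± 0.05 for NDRG1 with 1 µM, and 2.16 ± 0.05 and 2.44 ± 0.05 with 5 µM. For AKAP12 it was 0.96 ± 0.11 with 1 µM (edgeR adjusted p = 1.55e-08) and 0.58 ± 0.12 with 5 µM (edgeR adjusted p = 5.85e-05). HPGD gave 0.69 ± 0.23 with 1 µM (edgeR adjusted p = 0.0181) and 0.23 with 5 µM (95% interval -0.23 to 0.70, edgeR adjusted p = 0.415). The HPGD call was lost without DMSO library 2 of day 1 (0.47, adjusted p = 0.134), 1 µM library 2 of day 1 (0.61, adjusted p = 0.0551) or 1 µM library 1 of day 5 (0.59, adjusted p = 0.0609). Of all genes, 15.6% had a higher effect at day 5 with 1 µM and 27.2% with 5 µM.

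DMSO cultures also changed between the days. HPGD rose by 1.56-fold (log2 0.64 ± 0.16, edgeR adjusted p = 0.00282), AKAP12 by 1.31-fold (0.39 ± 0.08, edgeR adjusted p = 0.000379) and NDRG1 by 1.13-fold (0.18 ± 0.04, edgeR adjusted p = 0.000902), where 11.1% of genes were called higher. MAF was not past the threshold (-0.08, 95% interval -0.17 to 0.00, edgeR adjusted p = 0.147), and without DMSO library 2 of day 1 it had -0.13 with an adjusted p of 0.0391.

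The 96 other androgen response genes moved in both directions. With 1 µM, 4 were called higher and 33 lower at day 1, and 58 higher and 21 lower at day 5, where 6.3% of all genes were called higher and 9.52% lower at day 1 and 23.4% and 22.9% at day 5. At day 5 they had a median log2 fold change of 0.18 with 1 µM against 0.00 over all genes. With 5 µM, 19 were higher and 52 lower at day 1, and 59 higher and 35 lower at day 5, where the shares of all genes were 21.6% and 23.4% at day 1 and 34.4% and 33.9% at day 5. The largest rises with 1 µM at day 5, beside the members, were in ADAMTS1 (1.03), the lipid-mobilizing glycoprotein AZGP1 (1.01) and the protease TMPRSS2 (1.01). Falls included the sterol sensor regulator INSIG1 (-0.46) and the desaturase FADS1 (-0.34). On top of an ARPi, a PARPi raised 36 and lowered 28 of these genes with abiraterone and raised 31 and lowered 28 with enzalutamide, beside 14.4% higher and 14.7% lower of all genes in the first case and 16.5% and 17.9% in the second.

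Genes of the prostaglandin pathway around HPGD were fixed as a list of 27, of which 15 were tested. With olaparib at day 5, 4 rose and 5 fell at 1 µM, and 7 rose and 6 fell at 5 µM, while of all genes 23.4% rose and 22.9% fell at 1 µM and 34.4% rose and 33.9% fell at 5 µM. PTGS1, a cyclooxygenase that starts prostaglandin synthesis, rose by 1.97 on the log2 scale at 1 µM and by 2.78 at 5 µM (edgeR adjusted p = 7.62e-08 and 3.12e-12). Thromboxane synthase TBXAS1 rose by 0.50 and 1.11, and the prostaglandin E receptor PTGER4 by 0.26 and 0.99. CBR3, a carbonyl reductase, had -0.87 and -2.96, the prostaglandin F receptor PTGFR -0.30 and -1.04, and the synthase PTGES3 -0.24 and -0.61. Unlike HPGD, these 6 genes each had a larger change at 5 µM than at 1 µM.

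Protein kinase A anchors and subunits, the family of AKAP12, gave 5 rises and 7 falls among 24 tested with 1 µM at day 5, and 9 rises and 7 falls with 5 µM, beside the same shares of all genes (23.4% and 22.9%, then 34.4% and 33.9%). AKAP13 rose by 0.44 and 1.04 on the log2 scale, AKAP8L by 0.25 and 0.58, and PALM2AKAP2 by 0.91 and 1.48. The kinase inhibitor PKIA had -1.16 and -2.28, AKAP5 -0.76 and -1.01, and AKAP7 -0.65 and -1.70. The median of the list was 0.05 at 1 µM and -0.03 at 5 µM, beside 0.00 and -0.01 over all genes.

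Among 10 tested relatives and partners of MAF, 3 rose and 1 fell with 1 µM at day 5, and 7 rose and 3 fell with 5 µM, against 23.4% and 22.9% of all genes at 1 µM and 34.4% and 33.9% at 5 µM. BACH1 rose by 0.31 and 0.19 and NFE2L1 by 0.30 and 0.75, while NFE2L3 had -0.58 and -1.03. None of these 3 came near the 1.92 and 2.52 of MAF. Of the 3 NDRG relatives, NDRG2 rose by 0.17 and 0.18 and NDRG3 by 0.11 and 0.52.

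NDRG1 is also a hypoxia target, and 28 other hypoxia targets were tested. With olaparib at day 1, 1 rose and 7 fell at 1 µM, and 7 rose and 12 fell at 5 µM, where 6.3% and 21.6% of all genes rose and 9.52% and 23.4% fell. At day 5, 16 rose and 3 fell at 1 µM and 18 rose and 7 fell at 5 µM, with medians of 0.11 and 0.32. The shares over all genes were again 23.4% higher and 22.9% lower at 1 µM and 34.4% and 33.9% at 5 µM. ANKRD37 rose by 0.64 and 0.68, the carbonic anhydrase CA12 by 0.59 and 1.43 and the growth factor VEGFA by 0.53 and 0.99. STC2 had -0.78 and -0.95, ERO1A -0.14 and -0.43, and DDIT4 turned from -0.11 at 1 µM to 0.32 at 5 µM. With abiraterone 5 of these genes rose and 17 fell, and with enzalutamide 7 rose and 14 fell, where 25.8% of all genes rose and 27.1% fell with abiraterone and 27.0% rose and 26.3% fell with enzalutamide. On top of enzalutamide, talazoparib raised 2 and lowered 10, beside 16.5% and 17.9% of all genes.

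Over all 39 libraries, centred within each experiment, log2 CPM of AKAP12 and HPGD had a Pearson correlation of 0.958, MAF and AKAP12 0.920, MAF and HPGD 0.898, MAF and NDRG1 0.891, NDRG1 and AKAP12 0.760, and NDRG1 and HPGD 0.733. In the time course alone MAF and NDRG1 had the highest value, 0.993, and MAF and HPGD the lowest, 0.743. These describe libraries that share their treatments, so they carry no test. The 3 genes most like MAF among 13881 genes were MOGAT2 (0.992), ALPK2 (0.987) and RHOU (0.984), and those most like NDRG1 were ZBTB24 (0.986), FAM162A (0.983) and NFKB2 (0.983). AKAP12 was most like FKBP5 (0.990), TBC1D4 (0.989) and PAK1IP1 (0.989), and HPGD like SLC38A4 (0.976), F5 (0.975) and ZNG1A (0.974). FKBP5, a co-chaperone and androgen target, differed from AKAP12 in size, with -2.69 and -2.81 with the ARPi where AKAP12 had -4.44 and -5.26.

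Neighbouring genes were read for the same treatment. A lncRNA 5065 bases from MAF on the opposite strand (ENSG00000278058) rose by 2.27 and 2.96 on the log2 scale with 1 and 5 µM at day 5 (edgeR adjusted p = 1.68e-09 and 2.7e-13), from 8 to 14 counts with DMSO to 62 to 78 with 5 µM. WWOX, 373176 bases away on the other side of MAF, had -0.07 and -0.34. TG, next to NDRG1, rose by 1.09 and 2.15 from 12 to 19 counts. A lncRNA that overlaps the end of NDRG1 on the same strand (ENSG00000289316) rose by 2.84 and 3.37, and reads shared between them cannot be told apart. Beside AKAP12, MTHFD1L had -0.65 and -1.20 and ZBTB2 -0.31 and -0.22, and beside HPGD, CEP44 had -0.22 and -0.23.

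Libraries held between 26932205 and 49833473 counts with a median of 37223200. All 11 markers fixed for C4-2B, such as KLK3 and HOXB13, had a median of at least 10 CPM, and 13 of 18 markers of fibroblasts, endothelium, leukocytes, basal and neuroendocrine cells had a median under 1 CPM. COL1A1 and VWF were the 2 of those 18 with a median above 10 CPM. The summed level of the 18 was 31.6 to 33.0 CPM with DMSO at day 5 and 51.6 to 53.4 with 5 µM olaparib, and most of this step lay in CD68. CD68, a lysosomal protein used as a macrophage marker, had 5.52 to 6.35 CPM with DMSO at day 5, 15.2 to 16.7 with 1 µM and 26.9 to 29.6 with 5 µM, and in the panel 4.31 to 7.10 with DMSO and 14.2 to 15.7 with olaparib. The other leukocyte markers stayed low in the time course, with at most 0.104 CPM of PTPRC, 0.135 of CD14 and 0.0279 of CD3E. With an ARPi the markers of other cells differed from DMSO in both directions. Of 7 tested, 4 were called higher and 2 lower with abiraterone, and 3 higher and 3 lower with enzalutamide. The shares of all genes were 25.8% higher and 27.1% lower with abiraterone and 27.0% and 26.3% with enzalutamide. PTPRC had at most 0.0760 CPM with DMSO, 0.286 to 0.436 with abiraterone, 0.330 to 0.967 with enzalutamide and 0.896 to 1.17 with enzalutamide plus talazoparib. COL1A1 had 10.5 to 13.7 CPM with DMSO and 17.1 to 22.1 over the groups with an ARPi, and COL3A1 at most 0.0873 and 0.335 to 0.725. SYP went the other way, from at least 2.18 CPM with DMSO to 0.813 to 1.39 with abiraterone and 1.30 to 1.65 with enzalutamide. CD68 had 3.49 to 3.70 CPM with abiraterone and 2.47 to 3.02 with enzalutamide, and VWF 20.5 to 21.2 with abiraterone and 11.4 to 12.6 with enzalutamide, beside 13.9 to 16.4 with DMSO. The summed level of the 18 in the panel was 33.8 to 42.1 CPM with DMSO and 36.9 to 54.7 with an ARPi. LUM, DCN, PECAM1 and KRT5 held at most 4 counts in any library. The part of these markers in the changes above was not tested. As treatment checks, CDKN1A, a p53 target, had log2 fold changes of 2.46 and 4.15 with 1 and 5 µM olaparib at day 5, and KLK3, which encodes PSA, had -1.58 with abiraterone and -2.25 with enzalutamide.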

How the data were processed

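RNA of C4-2B cells was sequenced in 39 libraries of 13 groups with 3 replicates each, grouped by their labels. The authors trimmed paired reads with Trim Galore, aligned them to GRCh38 with STAR and quantified genes with Salmon on GENCODE. The values the authors deposited are these estimated counts per gene. They are whole numbers and not normalized, and how they were made whole is not given in the sources used here. Of 63187 gene IDs, 62666 were paired with a symbol through the GENCODE release before that of the authors, which also gave coordinates and exon lengths. Total counts per library ran from 26932205 to 49833473.

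From the counts, edgeR 4.0.16 in R 4.3.3 gave CPM (TMM scaling), log2 fold changes, standard errors and the quasi-likelihood test. P-values were adjusted by Benjamini-Hochberg over all genes that passed filterByExpr by group, 18625 in the panel and 18502 in the time course. Each experiment was fitted on its own with all its groups and no covariates, so levels are not comparable between experiments. A gene was called at an adjusted p under 0.05. Ratios of few counts were taken from summed counts and are given without an interval. The fits were tested on simulated counts, where edgeR called 198 of 200 changed genes (6 unchanged ones also) for olaparib 1 µM at day 5 over 18123 genes, and 194 (12 unchanged) for olaparib added to abiraterone over 18243 genes.

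The 4 genes and the lists were chosen with earlier results of these data known. Contrasts that chose a gene, and others on libraries that chose it, were not tested for it. Named list genes are the up to 3 largest rises and falls past the threshold with 1 µM olaparib at day 5, and named like genes the 3 with the highest Pearson correlation of log2 CPM (prior count 2) among genes with a mean of at least 1 CPM. Some genes that this rule names are not reported here. Replicates of a group differed by more than sampling noise, with a chi-square per degree of freedom of 2.11 to 5.63 over 39 pairs. Alternatives were RLE and total count scaling, other filters on low counts, DESeq2 1.42.0, fits of only the groups compared, a replicate block and leaving out each library. Western blots and viability data were not analysed here.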

Additional observations from a re-analysis of the deposited data

Results flagged for a closer look

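The effect of olaparib differed between day 1 and day 5 for all 4 genes at 1 µM and for 3 of them at 5 µM, by a test of the difference itself in edgeR. Of all genes, 15.6% had a higher effect at day 5 with 1 µM and 27.2% with 5 µM. The differences in log2 fold change, day 5 minus day 1, were 1.77 with 1 µM and 2.16 with 5 µM for MAF, and 1.75 and 2.44 for NDRG1. AKAP12 had 0.96 and 0.58, and HPGD had 0.69 with 1 µM. The HPGD call was lost in 3 of the fits that left out 1 library. MAF and NDRG1 thus had a larger difference at the higher dose, whereas AKAP12 had a larger one at the lower dose, and this contrast between genes was not tested. Within a dose, the genes share their libraries and DMSO controls.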

How the results depend on the processing

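Low counts limit HPGD and AKAP12, since an ARPi left at most 12 counts of HPGD and 46 of AKAP12 in a library. Another scaling (RLE), a filter at 1 CPM in 3 libraries and a replicate block changed none of the 88 results for the 4 genes. Libraries with the same replicate number or letter did not deviate together: their correlations ran from -0.133 to 0.116 in the time course, with 2 of 45 over 0.1, and from -0.0686 to 0.0636 in the panel, so the block is not a pairing. Without a filter on low counts, NDRG1 between the combinations was -0.32 (edgeR adjusted p = 0.0652). With DESeq2, AKAP12 between the ARPi was -0.85 and HPGD with abiraterone against DMSO -5.75. Total count scaling gave -3.74 for MAF with abiraterone plus olaparib against olaparib, -2.37 for NDRG1 with enzalutamide plus talazoparib against talazoparib and -5.61 for HPGD with abiraterone against DMSO. The cause of these shifts was not tested. Fits of only the groups compared gave no value for HPGD in 4 comparisons without enough counts and changed none of the other 84.

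Leaving out each library in turn changed 25 of 1740 results. Between these fits MAF ranged from 0.11 to 0.20 with 1 µM at day 1, from -0.13 to -0.039 for DMSO between the days and from -0.19 to -0.10 for talazoparib against olaparib. NDRG1 ranged from -0.43 to -0.31 between the ARPi, from -0.38 to -0.28 between the combinations and from -2.46 to -2.40 for enzalutamide plus talazoparib against talazoparib. AKAP12 ranged from -0.24 to -0.11 with 5 µM at day 1, from -0.70 to 0.14 for olaparib added to abiraterone, from -1.09 to -0.26 between the ARPi and from -5.00 to -4.16 with abiraterone against DMSO. HPGD ranged from -0.59 to -0.39 for the dose step at day 5, from 0.47 to 0.82 for the day difference at 1 µM, from -2.25 to 0.60 between the combinations and from -0.94 to 1.91 for olaparib added to abiraterone, the last 2 from at most 12 counts a library. Against DMSO it ranged from -5.79 to -5.04 with enzalutamide, from -6.61 to -3.77 with abiraterone plus olaparib and from -6.39 to -5.58 with enzalutamide plus talazoparib.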

Other observations

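DMSO levels at day 5 are given side by side for the experiments, which were scaled separately, so they are not compared. AKAP12 had 16.1 to 22.5 CPM in the panel and 7.07 to 7.54 in the time course. NDRG1 had 138 to 178 and 104 to 111, MAF 34.9 to 39.6 and 29.5 to 31.9, and HPGD 3.17 to 3.52 and 2.24 to 2.60. With 1 µM olaparib at day 5 the fold changes, also side by side, were 3.12 in the panel and 3.80 in the time course for MAF, 2.91 and 3.76 for NDRG1, 1.99 and 1.91 for AKAP12, and 1.40 and 1.71 for HPGD. The panel values of MAF, NDRG1 and AKAP12 are among those used to choose these genes.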
